A study of Homo sapiens with 8 samples.

Results

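Small open reading frames (smORFs) that carry a mark for a RepeatMasker hit are described here by their sequence, their ribosome footprints and their response to differentiation and to micelles. RepeatMasker is a program that finds copies of known transposable elements, simple repeats and small RNA genes in a genome. The annotation marks 9604 of 24199 smORFs (39.7%) as TRUE for such a hit. The mark is only TRUE or FALSE, so no repeat family could be read from it, and members were instead grouped by their own sequence. Footprints were sequenced by Ribo-Seq in Caco-2, a line from a human colon carcinoma that takes on enterocyte features when left to differentiate. The 8 libraries form 4 groups of 2. One group was undifferentiated. The others were differentiated, and served as a control, or received micelles without lipid (taurocholate), or received lipid micelles, for which the labels list BSA, oleic acid and cholesterol. All come from the 1 line. The labels do not say that replicates were separate cultures, so p-values measure only the spread between these libraries. The days allowed for differentiation and the time of treatment are not given in the labels.

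Repeat elements make up a large share of human introns, untranslated regions and long non-coding RNAs. Alu elements, the most abundant, descend from 7SL RNA, the RNA of the signal recognition particle, and kept its outer Alu domain without the central domain. In antisense orientation they carry stretches that resemble splice sites and can enter mature transcripts as exons. Low-complexity tracts, rich in few bases, are common near the starts of genes. Small nuclear RNA genes (snRNAs) encode RNAs of the spliceosome and have many near-identical copies and pseudogenes, which RepeatMasker also reports. Reads from any of these can fit several places in the genome, so counts of high-copy smORFs rest on how such reads were assigned.

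The mark was first checked against the genomic span of each smORF, from start to stop with introns included. Of 16012 smORFs in a single exon 2697 (16.8%) were marked, and of 8187 spliced smORFs 6907 (84.4%) were marked. Among single-exon smORFs the marked share was 12.6% at spans of up to 100 bases, 22.6% from 101 to 300 and 35.3% from 301 to 500. Spliced smORFs with the short spans were marked about as often, with 27.2% from 101 to 300 bases and 32.9% from 301 to 500. The share then reached 57.2% from 501 to 1000 bases, 83.7% from 1001 to 2000, 98.1% from 2001 to 5000 and 100% of the 1690 smORFs that span more than 20000. Grouped by exonic length instead, the marked share of spliced smORFs hardly moved, from 82.4% at up to 100 bases to 85.4% at 301 to 500. The mark thus followed the span with introns, and for a spliced smORF it does not show that a repeat lies in the reading frame. Single-exon members, whose span is the reading frame itself, are therefore kept apart from spliced members below.

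**Figure D1:**
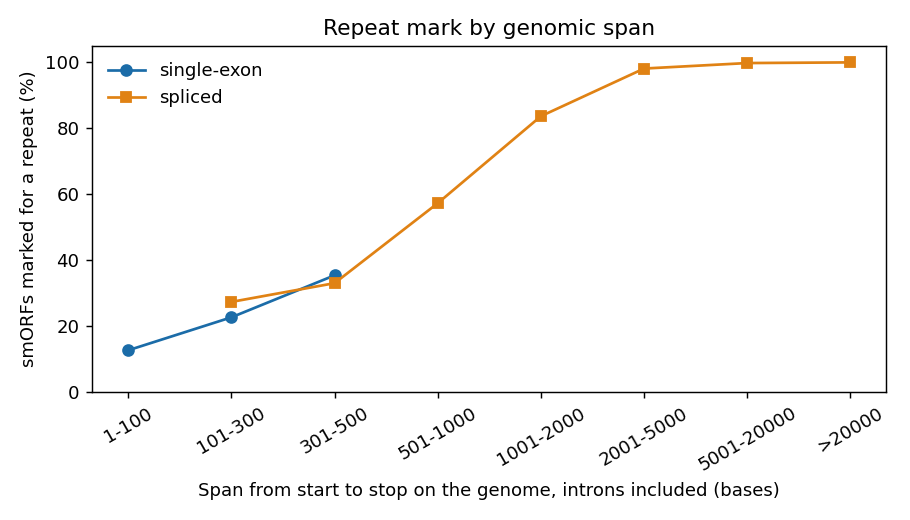
Percent of smORFs marked for a repeat (vertical axis) by genomic span with introns (horizontal axis, bases), for single-exon smORFs (circles) and spliced smORFs (squares). Bins with fewer than 20 smORFs are not drawn. Both lines run together up to 500 bases, and the spliced line reaches 100% at the longest spans.

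Copies in the genome gave an independent view of the sequence. A 20-base window found at least 100 times in hg38 occurred in 14.4% of marked single-exon smORFs and in 7.11% of marked spliced smORFs, against 0.483% of unmarked single-exon smORFs and 0.0803% of unmarked spliced smORFs. Marked members were split into 5 sequence groups. Those that overlap a small RNA gene of GENCODE release 44 on the same strand numbered 58 single-exon and 40 spliced. This group took in GENCODE's class of miscellaneous RNAs, which 28 of the 40 spliced members overlap. All 28 lie in longer non-coding RNAs such as DLEU1, TUG1 and NEAT1, so these annotations need not be separate small RNAs. Members with a high-copy window and a match to 7SL RNA, called 7SL-like here, numbered 56 and 175. Low-complexity members, with at least 20 bases masked by dustmasker, numbered 588 and 418. Other members with a high-copy window numbered 130 and 220, and their element cannot be named from the files. The remaining few-copy members, 1865 single-exon and 6054 spliced, held none of these features.

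The 7SL-like members lay against the outer parts of 7SL RNA, by the best match of each. Of the 231, 115 matched within positions 1 to 128 of the 299-base RNA and 116 within positions 239 to 299. Only IEC_19505 reached past position 98 in the first stretch, with a match to positions 13 to 128. The grouping itself limits what this shows, since a high-copy window was required. Members over annotated 7SL genes, such as IEC_20133 over RN7SL2, were counted with small RNA genes. Single-exon members split about evenly in orientation, 30 antisense and 26 sense to 7SL. Spliced members were mostly antisense, 152 of 175 (86.9%) from 101 host genes, with 23 sense. The spliced antisense members comprised 103 uORFs, which start upstream of an annotated coding sequence, and 49 smORFs in non-coding RNAs. Many overlap each other, and the 152 fall into 102 clusters of overlapping smORFs.

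**Figure D2:**
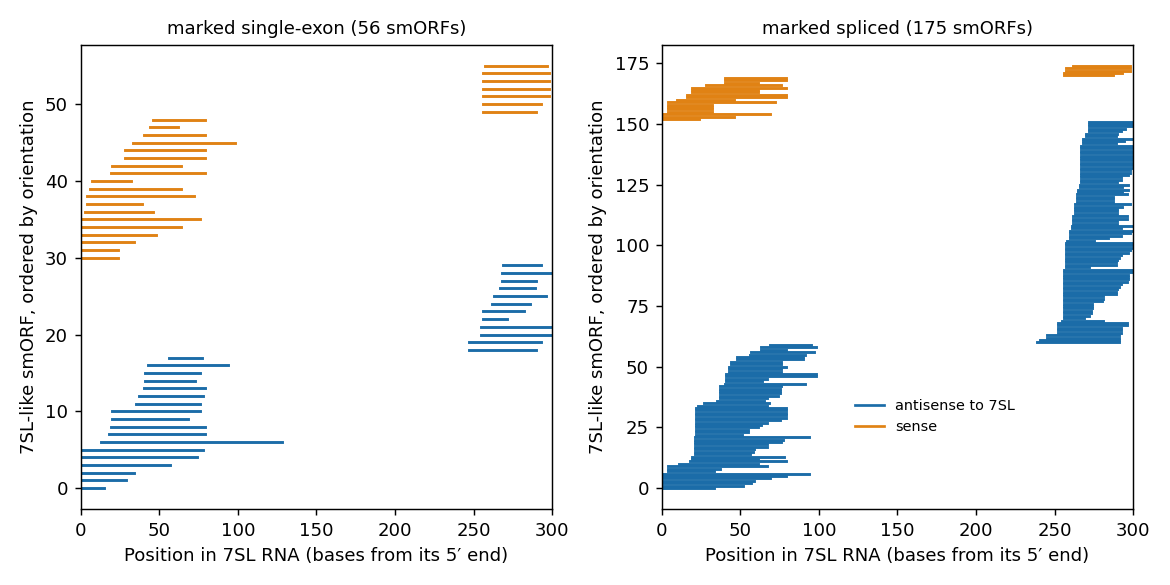
Each horizontal line is the stretch of 7SL RNA (horizontal axis, bases from its 5′ end) that 1 marked smORF matches, for 56 single-exon members on the left and 175 spliced members on the right. The matches lie within positions 1 to 98 and 239 to 299, except that of IEC_19505, which runs from 13 to 128. The antisense lines make up 152 of the 175 spliced members.

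Repeats supplied very different shares of a reading frame among the 7SL-like and high-copy members outside untranslated regions to which the results return. IEC_19505 is almost wholly repeat, since 115 of its 120 bases match 7SL positions 13 to 128 in antisense with 82.8% identity, including its ATG. IEC_23477 has its ATG before the repeat and 45 of 78 bases inside it, at 88.9% identity to 7SL positions 255 to 299. IEC_19916 is spliced, and 29 of its 129 bases match 7SL positions 265 to 293. In the spliced IEC_23584 the stretch in windows found at least 100 times in the genome covers the last 52 of 240 bases, and in IEC_23690 it covers 27 of 246. IEC_23690 is shown because it had the largest change among single-exon high-copy members, with that stretch in capitals, on the minus strand of hg38.
IEC_23690, chr15:101607700-101607945: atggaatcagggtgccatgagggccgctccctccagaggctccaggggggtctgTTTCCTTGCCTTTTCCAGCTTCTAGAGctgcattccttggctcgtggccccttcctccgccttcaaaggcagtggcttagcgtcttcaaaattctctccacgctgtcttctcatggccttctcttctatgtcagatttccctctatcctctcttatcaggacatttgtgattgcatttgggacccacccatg

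Other properties differed between the groups more than between marked and unmarked smORFs. Marked single-exon members had a median of 37 amino acids against 24 in unmarked single-exon smORFs, and marked spliced members 41 against 38. Low-complexity single-exon members were long and GC-rich, with medians of 64 amino acids and 73.3% GC, and 29.3% of them began with ATG. Unmarked low-complexity single-exon smORFs were alike, at 60 amino acids, 72.1% GC and 32.5%. The 7SL-like and other high-copy single-exon members began with ATG in 66.1% and 63.1% of cases, against 44.9% of unmarked single-exon smORFs. The median RibORF score, which weighs the 3-base periodicity of footprints, ranged from 0.842 to 0.912 over the 5 single-exon groups, and no smORF is below 0.7, the authors' limit. PhyloCSF, a score of protein-like conservation, was above 0 in 2.26% of marked single-exon and 1.25% of marked spliced members, against 2.01% and 0.703% of the unmarked. It was exactly 0 in 36.9% of other high-copy and 25.0% of 7SL-like single-exon members, against 1.26% of unmarked single-exon smORFs, and the files do not say whether 0 stands for a missing alignment. Even so, every 28-base window was found once in the genome for 81.4% of marked single-exon members long enough to hold one, which fell to 13.2% in the 7SL-like group and 31.5% in the other high-copy group.

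Library totals ran from 506382 to 884711 counts over all smORFs. Marker genes were looked up as hosts of smORFs. Their lists were drawn up with earlier results of these data known, so they give no independent check of the labelled cell state. SmORFs of enterocyte genes summed to 1521 to 1957 CPM (counts scaled to a common library total) in undifferentiated and 5059 to 7033 in differentiated libraries. Those of dividing-cell genes summed to 7631 to 8055 and 519 to 701, and those of epithelial genes to 2988 to 3325 and 3020 to 3744. Only 11 of the 18 listed enterocyte genes host a smORF. The APOA1 smORF went the other way, from 624 and 807 counts undifferentiated to 155 and 453 in the differentiated control. Fibroblast host genes summed to at most 52.1 and immune host genes to at most 11.4 CPM in any library, and the 1 goblet or enteroendocrine host gene had 154 to 183 CPM before and at most 3.86 CPM after differentiation. The 6223 members tested correlated between replicates at Pearson's r of 0.869 to 0.912 across smORFs on log2 values, and smORFs are not independent replicates.

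Marked members held 41.5% and 41.6% of all smORF counts in the undifferentiated libraries and 38.9% to 39.4% in the 6 differentiated libraries. The ranges did not overlap, and the exact permutation test of 2 against 6 libraries gave p = 0.0714 (two-sided), the smallest that this design allows. This separation rested on small RNA genes. With these taken out of the members only, the rest held 37.0% and 35.0% of all counts undifferentiated and 36.1% to 37.5% differentiated. Those ranges overlapped (p = 0.357, exact permutation test). In the values that follow, small RNA genes were taken out of both the members and the total. Without smORFs over small RNA genes, marked members held 39.1% ± 0.790 (SD, n = 2) in undifferentiated cells and 39.6% ± 0.229 (SD, n = 2) in the differentiated control. At 10 counts or more, 4403 to 4751 members were detected per undifferentiated library and 4367 to 5771 per differentiated library. These numbers were not adjusted for depth. The lowest, 4367, was in the smallest library (506382 counts) and the highest, 5771, in the largest (884711 counts). In at least 1 library 7036 members reached 10 counts (73.3%, against 71.5% of all smORFs). No count at all was recorded for 517 members. Per kilobase of exon, single-exon members were the lowest part at the median, with 98.7 to 102 CPM in undifferentiated and 121 to 129 in differentiated libraries, against 165 to 172 in all libraries for unmarked single-exon smORFs.

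Within single-exon members the groups moved apart. Small RNA members held 4.16% and 6.19% of counts in undifferentiated libraries and 1.61% to 2.41% after differentiation. The 7SL-like members rose from 0.120% and 0.125% to between 0.261% and 0.330%, and other high-copy members from 0.298% and 0.322% to between 0.467% and 0.523%. Few-copy members went from 3.96% and 4.05% to between 4.78% and 4.91%. None of these 4 ranges overlapped between the states. The low-complexity members did overlap, at 2.60% and 2.73% against 2.32% to 2.84%. Each non-overlapping split again gives the smallest exact permutation p, 0.0714.

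**Figure D3:**
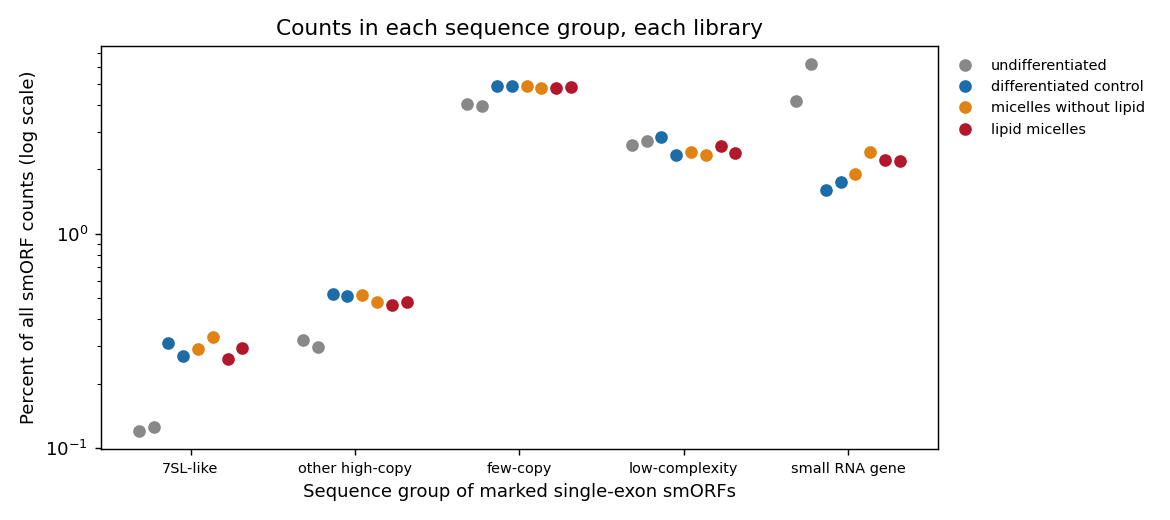
Percent of all smORF counts (vertical axis, log scale) held by each sequence group of marked single-exon smORFs in each of the 8 libraries, coloured by group. The 2 undifferentiated points lie below the 6 differentiated points for 7SL-like, other high-copy and few-copy members, above them for small RNA genes, and among them for low-complexity members.

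The first comparison asks which members changed when Caco-2 cells differentiated. In edgeR's quasi-likelihood test, with calls made at 0.05 on the adjusted p and 1 on the log2 fold change in either direction, 2125 of 6223 members tested (34.1%) were called in the differentiated control against undifferentiated cells, beside 33.3% of all 15182 smORFs tested. Of these, 1185 (19.0%, background 17.7%) were higher and 940 (15.1%, background 15.6%) were lower. The median log2 fold change of members was 0.05 and that of all smORFs 0.01. Members were called about as often as smORFs in general. In bulk libraries fewer cells of a type and less RNA per cell cannot be told apart.

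By part, 383 of 1655 single-exon members tested (23.1%) were higher and 255 (15.4%) lower, with a median of 0.19. Among spliced members, 802 of 4568 (17.6%) were higher and 685 (15.0%) lower, with a median of 0.00. The sequence groups of single-exon members ran from high to low. Of 75 other high-copy members 27 were higher and 3 lower (median 0.85), of 32 7SL-like members 10 were higher and 1 lower (median 0.75), and of 1078 few-copy members 298 were higher and 150 lower (median 0.46). Low-complexity members had 43 higher and 71 lower of 420 (median -0.20), the lower share of 16.9% near the background. Those counts were 40 and 44 without control replicate 2 and 33 and 41 without undifferentiated replicate 2. Small RNA members had 5 higher and 30 lower of 50 (median -1.63), a lower share of 60.0% beside the background of 15.6%. Unmarked single-exon smORFs over small RNA genes had 23 higher and 15 lower of 87 (median 0.33), so the fall was not shared by them. Among spliced members the other high-copy group stood highest, with 65 higher and 17 lower of 156 (median 1.04), while the 7SL-like group had 20 higher and 19 lower of 113 (median 0.09). The 65 became 40 without control replicate 2 and 40 without undifferentiated replicate 2. The medians of the 5 single-exon groups kept their sign under every alternative run.

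Location classes moved with these groups. Single-exon members in non-coding RNAs had 204 higher and 47 lower of 518 (median 1.02), beside 400 and 87 of 1159 unmarked single-exon smORFs in non-coding RNAs (median 0.84). Those downstream of coding sequences (dORFs) had 51 higher and 3 lower of 110 (median 1.42), beside 253 and 20 of 712 unmarked (median 0.94). Among uORFs, 112 of 982 members were higher and 197 lower (median -0.23), beside 685 and 1146 of 6065 unmarked (median -0.23). Within non-coding RNAs, 19 of 41 other high-copy members and 171 of 400 few-copy members were higher, so that the high-copy share of 46.3% lay near the few-copy share of 42.8%. Among uORFs the other high-copy group had 3 higher and 3 lower of 23. Of single-exon 7SL-like members, 5 of 15 in non-coding RNAs were higher (33.3%), beside 36.5% of all smORFs tested in non-coding RNAs. Among uORFs this group had 2 higher and 1 lower of 11. Spliced 7SL-like members had 11 higher and 2 lower of 32 in non-coding RNAs, and 9 higher and 17 lower of 81 uORFs. Spliced other high-copy members split by location, with 60 higher and 3 lower of 106 in non-coding RNAs (median 1.54) and 4 higher and 14 lower of 48 among uORFs (median -0.69). Low-complexity single-exon members did so as well, with 28 higher and 69 lower (18.7%) of 369 uORFs, beside 18.8% lower of all uORFs tested, 9 higher and 1 lower of 26 dORFs, and 6 higher and 1 lower of 23 in non-coding RNAs. No difference between marked and unmarked smORFs or between the groups was tested.

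**Figure D4:**
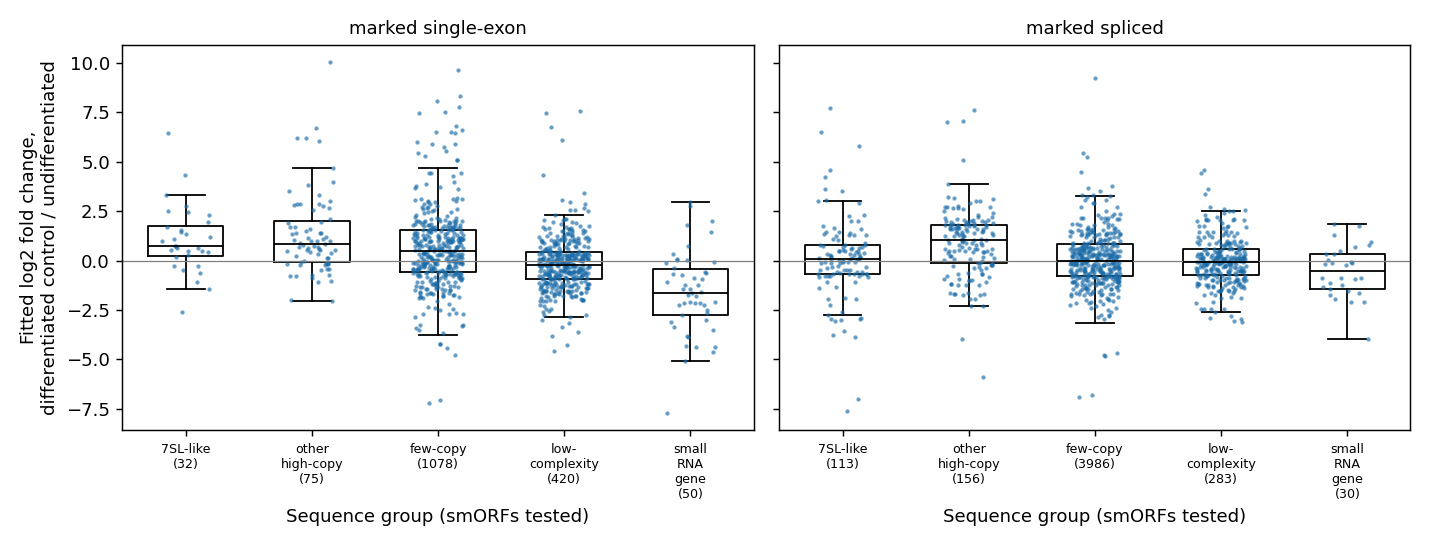
Fitted log2 fold change of the differentiated control over undifferentiated cells (vertical axis) for members tested, by sequence group, single-exon on the left and spliced on the right. Points are smORFs (at most 400 drawn per group), boxes give quartiles and medians, whiskers reach 1.5 times the box, and values of smORFs at 0 counts in 1 state depend on the fit's prior count. Small RNA genes have the lowest median (-1.63 single-exon) and spliced other high-copy members the highest (1.04).

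The leading 7SL-like members were low in counts. IEC_19505, in the long non-coding RNA LHFPL3-AS2, had 1 and 0 counts in the undifferentiated libraries, 10 and 16 in the differentiated control, 19 and 41 with micelles without lipid, and 24 and 33 with lipid micelles. Its ratio of differentiated control to undifferentiated was 24.3, with a 95% counting interval of 4.00 to 998 (adjusted p = 0.000896, edgeR). IEC_23477, in LINC02348 (ENSG00000286733 in the files), was at 0 in both undifferentiated libraries and had 5 and 17 counts in the differentiated control, which is at least 3.17-fold higher against 3 counts in each undifferentiated library (adjusted p = 0.00209, edgeR). Both therefore sat at or near 0 before differentiation and above it after. The only single-exon 7SL-like call that was lower was IEC_05629, a uORF of BANP, a nuclear protein that binds chromatin. It had 19 and 11 counts in undifferentiated and 3 and 2 in control libraries (log2 fold change -2.60 ± 0.73, SE; adjusted p = 0.0104, edgeR), and this call was lost without undifferentiated replicate 1 or differentiated control replicate 2 (adjusted p = 0.132 and 0.146, edgeR).

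Spliced 7SL-like members appeared or vanished in both directions. IEC_20770, in the non-coding RNA ENSG00000254248, had 0 and 0 counts undifferentiated and 22 and 28 in the control, at least 7.91-fold higher (adjusted p = 3.52e-05, edgeR). IEC_24045, a uORF of the scavenger receptor gene MSR1, went from 0 and 0 to 12 and 9, at least 3.5-fold higher (adjusted p = 0.00122, edgeR). IEC_19916, in ENSG00000241593, fell from 19 and 25 counts to 0 in both control libraries, at least 7.61-fold lower (adjusted p = 0.000227, edgeR). IEC_12767 lies in transcripts of MELK, a kinase of dividing cells, and went from 12 and 17 counts to 0 and 0, at least 5.02-fold lower (adjusted p = 0.00101, edgeR). Between 43.6% and 92.8% of the 28-base windows of these 4 were found once in the genome. Restricted to smORFs with at least 90% of windows found once and refitted, spliced 7SL-like members had 6 higher and 15 lower of 47, while 1 smORF per overlap cluster gave 13 higher and 3 lower of 41, so the balance of the group depended on which smORFs were counted. AURKA alone held 5 of the 19 lower calls.

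Among other high-copy members the largest single-exon change was in LINC02348 again. IEC_23690 had no count in either undifferentiated library and 104, 149, 129, 154, 142 and 198 in the differentiated ones, at least 39.5-fold higher in the control (adjusted p = 3.33e-08, edgeR). All 7 members of this gene summed to 0 and 0 counts before differentiation and to 356 to 520 in the differentiated libraries, and all 5 that were tested were called higher. IEC_17427, a uORF of the microtubule-associated ubiquitin ligase MID1, went from 0 and 0 to 17 and 7 counts, at least 4.21-fold higher (adjusted p = 0.00247, edgeR). Both lower calls named by the rule were lost when single libraries were left out. IEC_16657, a uORF of NME7, a part of the centrosome's microtubule-nucleating complex, had 36 and 12 against 3 and 9 counts (log2 fold change -2.07 ± 0.54, SE; adjusted p = 0.00709, edgeR), and adjusted p was 0.215 without undifferentiated replicate 1 and 0.0549 without control replicate 1. IEC_09318, a uORF of ZNRF3, which removes Wnt receptors from the cell surface, had 12 and 22 against 3 and 6 counts (-2.01 ± 0.61, SE; adjusted p = 0.0161, edgeR), and it was lost without undifferentiated replicate 2 (adjusted p = 0.234) or either control replicate (0.0813 and 0.0769).

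Spliced other high-copy members were led by non-coding RNAs. IEC_23584, in HIF1A-AS3, an antisense RNA of the hypoxia factor gene HIF1A, went from 0 and 0 to 14 and 34 counts, at least 7.13-fold higher (adjusted p = 4.29e-05, edgeR). IEC_12088, in LINC01146, went from 0 and 0 to 6 and 27, at least 4.66-fold higher (adjusted p = 0.000476, edgeR). IEC_19502, a uORF of the Cdc42 effector CDC42EP3, fell from 34 and 36 counts to 1 and 0, a ratio of 74.8 with a 95% counting interval of 13.0 to 2994 (adjusted p = 2.70e-05, edgeR). IEC_04414, a uORF of the Holliday junction resolvase GEN1, fell from 26 and 21 to 0 and 3, a ratio of 16.7 (5.39 to 84.0; adjusted p = 0.000843, edgeR). The 65 higher calls came from 29 host genes, of which the non-coding RNA MAFTRR alone held 11. With 1 smORF per overlap cluster, 19 were higher and 6 lower of 49, and with at least 90% of windows found once 23 were higher and 14 lower of 75.

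The named low-complexity members were uORFs. IEC_13355, a uORF of NRN1 (neuritin, which promotes neurite growth), was at 0 in both undifferentiated libraries and had 23 to 64 counts in the differentiated ones, at least 10.0-fold higher in the control (adjusted p = 3.58e-06, edgeR). IEC_16220, a uORF of the GABA receptor subunit GABRA2, went from 0 and 0 to 16 and 30, at least 7.0-fold higher (adjusted p = 6.82e-05, edgeR). IEC_22569, a uORF that the annotation places at MBD3, a subunit of the NuRD repressor complex, fell from 19 and 9 counts to 0 and 1, a ratio of 29.9 (95% counting interval 4.94 to 1223; adjusted p = 0.00148, edgeR). IEC_05204, a uORF of the engulfment adaptor GULP1, fell from 11 and 11 to 0 and 1 (adjusted p = 0.0147, edgeR), and that call was lost when any 1 of the 4 libraries compared was left out (adjusted p from 0.0678 to 0.0890). In the few-copy group IEC_23687, the third LINC02348 member here, went from 0 and 0 to 88 and 103 counts, at least 30.5-fold higher (adjusted p = 7.95e-08, edgeR). IEC_13936, a uORF of the lysosomal transporter SLC46A3, went from 0 and 0 to 35 and 51, at least 13.4-fold higher (adjusted p = 9.26e-06, edgeR). IEC_04102 and IEC_11968, uORFs of the actin-like ACTL8 and of the steroid sulfatase STS, fell from 18 and 15 and from 19 and 11 counts to 0 in both control libraries, at least 5.63-fold and 5.06-fold lower (adjusted p = 0.000528 and 0.00116, edgeR).

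Small RNA members split by the snRNA they lie over. All 9 tested members over U5 snRNA genes and pseudogenes were lower, with log2 fold changes from -7.70 to -1.78. The 10 U5 members summed to 22922 and 34349 CPM undifferentiated and to 1340 to 2088 in the differentiated libraries. These 10 lie over 4 genes and fall into 7 clusters of overlapping smORFs, so they are not independent. IEC_16537 and IEC_16538, both over RNU5E-4P, had 4706 and 6127 and 4690 and 5983 counts undifferentiated. Over U4, 3 of 4 members were higher, and their sum was 1205 and 1364 against 3847 to 9008 CPM. Of 10 tested U1 members 5 were lower and none higher, and of 4 U2 members 2 were lower. U1, U2, U4 and U5 RNAs are all parts of the spliceosome. Where copies are near-identical, which copy a count belongs to is uncertain. Whether reads over these RNAs came from translating ribosomes was not tested. All 28-base windows were found once in the genome for 70.8% of the single-exon small RNA members long enough to hold one, and with at least 90% of windows found once 22 of 33 were lower and 0 higher. Of the U4 members below, IEC_16530 had 66.7% of its windows found once and IEC_16547 was too short to hold a window, so neither was in that set. The single-exon group also held 9 members over other small RNA annotations inside longer transcripts, all 9 of them lower. They lie in DLEU1 (4, which overlap and share counts) and HULC (2), over a U3 snoRNA copy in TEX14 (2), and over a 5S rRNA copy in ENSG00000285674 (1).

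Sequences of the U5 and U4 members show where their counts lie. They are given because they moved in opposite directions, and none has a high-copy window, so none is in capitals. All are on the minus strand of hg38 and wholly inside the snRNA exon named.
IEC_16524, RNU5F-1, chr1:44721787-44721822: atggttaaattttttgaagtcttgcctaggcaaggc
IEC_16537, RNU5E-4P, chr1:11909835-11909879: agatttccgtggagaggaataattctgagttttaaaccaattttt
IEC_16530, RNU4-1, chr12:120293099-120293131: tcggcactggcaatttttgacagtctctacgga
IEC_16547, RNU4-2, chr12:120291781-120291804: aatatagtcggcattggcaatttt

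The U5 members separated the 2 states completely. IEC_16524 had 2031 and 2799 counts undifferentiated and 42 to 117 in the 6 differentiated libraries (log2 fold change in the control -5.10 ± 0.36, SE; adjusted p = 3.33e-08, edgeR). IEC_16527, 18 bases of the same gene, fell from 25 and 22 counts to 0 and 0, at least 8.03-fold lower (adjusted p = 0.000138, edgeR). IEC_16537 had 4706 and 6127 against 261 to 513 counts (-4.39 ± 0.32, SE; adjusted p = 3.89e-08, edgeR). The U4 members went the other way with a wide spread between replicates. IEC_16530 had 135 and 79 counts undifferentiated, 529 and 1323 in the control, 670 and 2154 with micelles without lipid, and 2179 and 767 with lipid micelles (2.96 ± 0.51 in the control, SE; adjusted p = 0.000251, edgeR). IEC_16547 had 523 and 308 against 969 to 3822 (1.98 ± 0.42, SE; adjusted p = 0.00161, edgeR). IEC_16536, over a Y RNA copy in TBL1XR1, had 6 and 1 against 29 and 21 counts (2.76 ± 0.66, SE; adjusted p = 0.00386, edgeR).

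**Figure D5:**
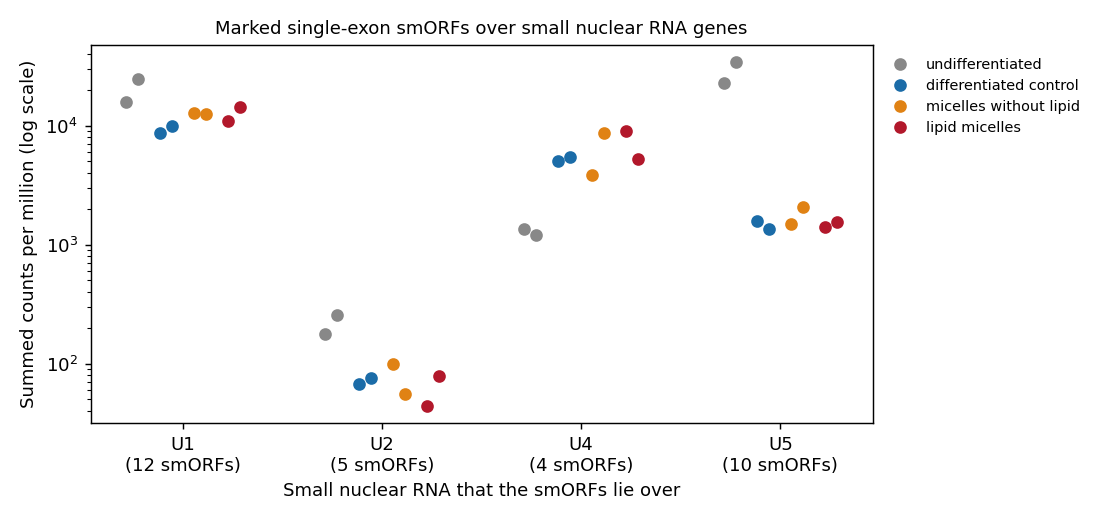
Summed CPM (vertical axis, log scale) of marked single-exon smORFs over U1, U2, U4 and U5 snRNA genes in each library, coloured by group. The U5 sum is 22922 and 34349 in the undifferentiated libraries and at most 2088 in the 6 others, while the U4 sum runs the opposite way. Overlapping smORFs share counts, and each is included in a sum.

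The 5 members with most counts were 3 snRNA smORFs and 2 uORFs. IEC_03500, over the U1 variant RNVU1-22, held 51479 counts over the 8 libraries, with 7489 and 9662 undifferentiated, 2453 and 5723 in the control, 4826 and 7035 with micelles without lipid, and 4512 and 9779 with lipid micelles. Its log2 fold change in the control was -1.24 ± 0.29 (SE; adjusted p = 0.00357, edgeR). As a share of each library's counts it was 1.12% and 1.65% undifferentiated and 0.484% to 1.11% after differentiation, so the states did not overlap. The change fell short of 1 without undifferentiated replicate 2 (-0.93) or control replicate 1 (-0.91). IEC_19399, a spliced uORF of SERPINA1 (alpha-1 antitrypsin), had 1125 and 803 counts against 1892 and 3377 (1.34 ± 0.24, SE; adjusted p = 0.000331, edgeR), and all its 28-base windows were found once in the genome. IEC_11009, a low-complexity uORF of the actin-binding protein MARCKS, had 1239 to 2592 counts in every library and did not pass the test (0.52 ± 0.24, SE; adjusted p = 0.0939, edgeR). The others were IEC_16537 and IEC_16547 above.

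Genes known to silence repeats or to bind their RNA were looked up as hosts of smORFs, to set the members beside the cell's own repeat control. Of 46 listed genes 27 host a smORF, and 79 of their smORFs were tested in the differentiated control against undifferentiated cells. None was called higher and 31 were lower (39.2%, background 15.6%), with a median of -0.78. The list was drawn up with earlier results of these data known, so nothing is read from that share. The smORFs of 1 gene overlap and share counts, so these are not independent. Among the 29 that carry the repeat mark, 19 were lower and 0 higher, of which PPHLN1, a part of the HUSH silencing complex, held 6. IEC_02979 of DNMT3B, a DNA methyltransferase, had 11 and 16 counts undifferentiated and 0 and 0 in the control. IEC_03604 of the RNA helicase DHX9 had 20 and 20 against 2 and 7 counts (-2.24 ± 0.56, SE; adjusted p = 0.00519, edgeR). IEC_12996 of CBX5, the heterochromatin protein HP1α, had 12 and 18 against 2 and 6 counts (-2.0 ± 0.63, SE; adjusted p = 0.0205, edgeR). The tested members of HNRNPC, which masks antisense Alu splice sites, ran from -0.29 to 0.63 and none passed. Dividing-cell host genes moved with this list, with 24 of 25 smORFs lower, and their part in it was not tested.

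The micelle comparisons ask whether micelles, with or without lipid, changed members in differentiated cells. They share control libraries. By edgeR, none of the 6223 members was called with micelles without lipid or with lipid micelles, each against the control, or between both kinds of micelle, beside 0% of all 15182 smORFs in each. At an unadjusted p under 0.05 there were 221, 247 and 204 members (3.55%, 3.97% and 3.28%), and DESeq2 called 0 in each. The labels give replicate numbers but name no pairing. Same-numbered differentiated libraries deviated together only weakly from their group means (r of 0.109 to 0.198). Replicate 2 was also the deeper library in each differentiated group, and the part of depth was not tested. With the replicate number as a block, 3, 0 and 2 members were called.

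The members named for micelles are those with the smallest p. IEC_08659, in the long non-coding RNA LINC02732, had 52 and 78 counts in the control, 139 and 148 with micelles without lipid, and 175 and 230 with lipid micelles. Neither micelle group overlapped the control, yet the changes of 1.16 ± 0.27 and 1.38 ± 0.27 (log2, SE) had adjusted p-values of 0.523 and 0.764 by edgeR. IEC_22108, in MIR22HG, the host transcript of the microRNA miR-22, had 21 and 97 counts in the control and 106 and 446 with micelles without lipid (2.23 ± 0.55, SE; adjusted p = 0.634, edgeR). In both groups replicate 2 held more counts than replicate 1, and with the block the adjusted p was 0.000103. IEC_22851 of the same transcript, with 119 and 582 against 409 and 2006 counts, was also called with the block (1.77 ± 0.21, SE; adjusted p = 0.000223, edgeR), as was IEC_16534 over the U1 pseudogene RNU1-34P with 83 and 245 against 429 and 615 (1.88 ± 0.31, SE; adjusted p = 0.0103, edgeR). All 3 overlap small RNA genes.

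For lipid micelles the next smallest p was at IEC_09583, a uORF of the cytochrome oxidase assembly gene COX14, with 39 and 98 counts in the control and 169 and 211 with lipid micelles (1.26 ± 0.27, SE; adjusted p = 0.796, edgeR). Between the 2 micelle groups, IEC_23396 of FTX, a non-coding RNA that also hosts MIR374B, had 20 and 56 counts without lipid and 8 and 14 with it (-2.01 ± 0.52, SE; adjusted p = 0.999, edgeR; 0.0470 with the block). IEC_13561, a dORF of the membrane-bending protein BIN1, had 4 and 5 against 14 and 27 counts (1.88 ± 0.52, SE; adjusted p = 0.999, edgeR). With the block IEC_22851 was called here as well, lower with lipid micelles (-1.10 ± 0.20, SE; adjusted p = 0.0470, edgeR), at 409 and 2006 against 296 and 879 counts.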

How the data were processed

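Ribo-Seq reads of 8 Caco-2 libraries were aligned to hg38 with STAR (2.7.11a in the submitters' processing notes) and counted per smORF with HOMER by the authors, who deposited raw counts and an annotation with the RibORF score, the PhyloCSF score and the repeat mark. How counting treated strand, introns and reads with several matches, and the repeat release and minimum overlap behind the mark, are not given in the sources used here. Because the mark names no repeat, sequence groups stand in for families. The members and lists were chosen with earlier results of these data known.

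Counts were tested with edgeR 4.0.16 (filterByExpr, TMM, quasi-likelihood, all 8 libraries, group means) in R 4.3.3, with Benjamini-Hochberg adjustment over all 15182 smORFs tested, and two-sided p-values. DESeq2 1.42.0, other filters, 1 smORF per cluster and leaving out each library were alternatives; in the last, a lone library was assumed to vary like the other groups. CPM values (counts scaled to a common library total) are relative to TMM-scaled totals for single smORFs and to plain totals for sums. Folds against libraries all at 0 were set against 3 counts in each library, and counting intervals are exact binomial (95%), for counting error only. At 506382 to 884711 counts per library, 3 counts correspond to 3.49 to 5.86 CPM. Each SE was derived from the test, as the absolute log2 fold change divided by the square root of the quasi-likelihood F statistic. Genome copies were counted on both strands of 194 hg38 sequences without alternate loci, 7SL matches came from BLAST 2.17.0 (E-value limit 0.001), and overlaps from bedtools 2.31.1 and GENCODE release 44. The deposited sequence equalled hg38 at the deposited exons for 24143 of 24199 smORFs. Named members were, in each of 7 classes with at least 20 tested (the 5 single-exon groups, spliced 7SL-like and spliced other high-copy), the 2 called higher and 2 called lower with the largest change, no overlap between libraries and a mean of at least 10 counts in the higher group, 1 per overlap cluster; the 5 members with most counts; and per micelle comparison the members called or, failing that, the 2 with the smallest p. The families planned for this rule could not be read, so the 7 classes were set after the files were seen. Calls named with the block, the members named among repeat-control hosts and LINC02348 as a gene were chosen after their values were seen. Scripts were tested on simulated data. Same-numbered differentiated libraries deviated together from their group means (r of 0.198, 0.119 and 0.109), while undifferentiated libraries did not pair with them (r from -0.0653 to 0.0208). Some genes and sequences are not reported here.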

Additional observations from a re-analysis of the deposited data

How the results depend on the processing

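For the differentiated control against undifferentiated cells, 2125 members were called. The count was 1378 with DESeq2, 663 with 10 counts required in every library and 822 with 1 smORF per overlap cluster, where fewer smORFs were tested in the last 2. Leaving out 1 library gave 1517 to 2355, and the replicate block, which does not pair undifferentiated libraries, gave 2146. The median log2 fold change of members (0.05) was -0.0119 with no low-count filter and 0.118 with 1 smORF per cluster, and 0.0401 to 0.115 when 1 library was left out. The cause was not tested.

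For micelles without lipid, where 0 members were called, 6 were called with no low-count filter, 3 with the replicate block, and 0 to 3 when 1 library was left out (2 without differentiated control replicate 2 and 3 without micelles without lipid replicate 1). For lipid micelles against control the count was 1 with no filter, and 0 with the block and in every fit with 1 library left out. For lipid micelles against micelles without lipid it was 2 with no filter, 2 with the block and 0 when 1 library was left out. Fitting the 6 differentiated libraries alone without the block, an alternative chosen after seeing the data, gave 0 in all 3.

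The percent of counts in members (41.6 undifferentiated, 39.2 control, 38.9 micelles without lipid, 39.2 lipid micelles) became 37.4, 35.9, 35.7 and 36.1 with 1 smORF per cluster. Without small RNA genes it was 39.1, 39.6 and 39.7 in the first 3 groups, without the 10 smORFs with most counts 40.8, 39.1 and 38.7, and with at least 90% of windows found once 39.4 in both the control and micelles without lipid. Members detected (means of 4577, 4936.5, 5007.5 and 5439) became 1662, 1836.5, 1875 and 2027 with 1 smORF per cluster. Detection was at a fixed number of counts, without adjustment for library depth. Of the values of single named smORFs under the alternatives, 477 stayed on their side of the threshold with the same sign, 16 became weaker, 6 stronger and none reversed. With 2 libraries a group and few counts for most named members, a change that misses the threshold may only be undetectable at this depth.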
